A study of Homo sapiens with 8 samples.

Results

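The cytosolic ribosomal protein genes encode the proteins of the ribosome that works in the cytoplasm. They were taken from the count table by symbol: RPL, RPS or RPLP followed by a number and, in some, a paralogue suffix, or RPSA, with a mean of at least 1000 counts over the 8 libraries. This gave 80 of the 30434 genes in the table, 49 for the large (60S) subunit and 31 for the small (40S) subunit. The members were thus chosen by symbol and selected on their mean count over all libraries, so their levels are a description here. Of 84 symbols of this form, RPL3L (mean 3.88 counts), RPS27L (464.6), RPL22L1 (867.4) and RPL39L (911.6) fell under the minimum. RPL26L1 (1039.9) and RPL36AL (2445.4) were the members nearest above it. RPL26L1 passed only through the knockdown libraries (1359 to 1561 counts, against 572 to 634 in control), so the rule used its rise, which is described here without a test. All 80 members passed the filter on low counts. The symbol form leaves out FAU, whose product is a ribosomal protein fused to a ubiquitin-like protein, and RACK1, a protein of the 40S subunit with another kind of name.

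RNA was sequenced from SKBR3, an established human line from a breast tumour with amplified ERBB2, the gene of the receptor HER2. The control group held 4 libraries of SKBR3 cells labelled wild type. The knockdown group held 4 libraries from a stable SKBR3 line that carries lentiviral short hairpin RNAs (3 individual hairpins, per the series' text) against FOXA1, a pioneer transcription factor of luminal breast cells. The sources used here do not say whether the controls carried a control vector, or whether the 4 libraries of a group came from separate cultures. The p-values therefore measure only the spread between these libraries, which may be technical.

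Each ribosome holds, with few exceptions, a single copy of each ribosomal protein, so cells are known to make these proteins in matched amounts. Most of the genes start transcription inside a run of pyrimidines, and their mRNAs then begin with the 5′ terminal oligopyrimidine (TOP) motif, through which mTOR signalling and LARP1 regulate their translation. A change in mRNA level, which is what was measured here, is thus only part of how their output is set.

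Library totals ran from 19087878 to 23786684 counts. Values are given as CPM, counts per 1000000 after TMM scaling of the library totals. FOXA1 itself went from 191.7 CPM ± 1.65 in control to 3.96 ± 0.34 in knockdown (SD, n = 4 each), or -5.60 on the log2 scale (SE 0.063; edgeR's quasi-likelihood test, adjusted p = 3.19e-30). Of the 16430 genes tested, 12675 were called at an adjusted p under 0.05 (77.1%), 39.4% as higher and 37.7% as lower in knockdown. Markers of the line (ERBB2, KRT8, KRT18, KRT19 and EPCAM) had at least 3577 counts in every library. Their log2 fold changes were -2.45 (ERBB2), -1.87 (KRT19), 0.58 (KRT18), 0.33 (EPCAM) and 0.31 (KRT8). Of markers of other cell types, PTPRC, PECAM1, KRT14 and PGR had at most 7 counts in any library, and the 7 others tested summed to between 17.9 and 19.9 CPM in control and between 13.8 and 14.6 CPM in knockdown. Of those 7, 2 were higher and 4 lower, among them COL3A1 (0 to 104 counts, log2 fold change 7.25), PDGFRB (2.78), ESR1 (-4.76), CD68 (-3.05) and VWF (-2.62), and their part in the results below was not tested. In bulk RNA, fewer cells of a type and less RNA per cell cannot be told apart.

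The start-site sequences show what most of these genes share, and were chosen for the members whose changes are described below and for RPL24, which had the same run length as RPS24. Each is read 5′ to 3′ on the gene's strand, from 50 bases before to 20 bases after the RefSeq start (GRCh38.p14). Capitals mark the longest run of C and T that touches the 10 bases on either side of the start. RPL19 lies at chr17:39200233-39200302 (+), RPS6 at chr9:19380217-19380286 (-), RPL27A at chr11:8682742-8682811 (+), RPLP1 at chr15:69452768-69452837 (+), RPS24 at chr10:78033813-78033882 (+), RPS14 at chr5:150449720-150449789 (-), RPL24 at chr3:101686699-101686768 (-), RPS26 at chr12:56041868-56041937 (+), RPL9 at chr4:39458903-39458972 (-) and RPL26L1 at chr5:172958679-172958748 (+).
RPL19: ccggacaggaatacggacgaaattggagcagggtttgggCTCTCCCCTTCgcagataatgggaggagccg
RPS6: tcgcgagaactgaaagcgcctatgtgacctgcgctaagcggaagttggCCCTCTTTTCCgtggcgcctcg
RPL27A: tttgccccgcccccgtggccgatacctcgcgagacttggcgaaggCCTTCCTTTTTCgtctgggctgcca
RPLP1: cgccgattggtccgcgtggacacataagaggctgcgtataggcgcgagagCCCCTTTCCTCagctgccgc
RPS24: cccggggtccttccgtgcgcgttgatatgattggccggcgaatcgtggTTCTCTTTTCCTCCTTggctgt
RPS14: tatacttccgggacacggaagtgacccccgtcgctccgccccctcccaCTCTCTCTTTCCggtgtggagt
RPL24: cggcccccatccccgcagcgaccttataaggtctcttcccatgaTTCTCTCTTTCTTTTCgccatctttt
RPS26: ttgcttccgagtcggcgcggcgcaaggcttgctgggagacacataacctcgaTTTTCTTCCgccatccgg
RPL9: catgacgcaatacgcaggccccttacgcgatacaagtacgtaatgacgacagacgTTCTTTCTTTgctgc
RPL26L1: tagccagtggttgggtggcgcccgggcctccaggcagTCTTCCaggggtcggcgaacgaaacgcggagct

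RefSeq promoters of 300 bases (250 before to 50 after the start) were matched by symbol for 65 of the 80 members. A run of at least 8 C or T that touched the 10 bases on either side of the start was found in 50 of these 65 (76.9%), against 4099 of 27305 promoters in the table and 10 of 69 (14.5%) mitochondrial ribosomal protein promoters. The run held the first transcribed base itself in 40 of the 65 (61.5%), against 4.56% of all promoters. The median run was 11 bases in the members and 4 over all promoters. The RPL26L1 run, at 6 bases, was below this minimum, while those of RPL24 and RPS24 reached 16 bases. The run was present in members that were higher in knockdown (RPS24, RPS14) and in members that were lower (RPL19, RPS6, RPL27A). The median log2 fold change was 0.11 for the 50 members with the run and 0.06 for the 15 without.

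Short motifs were searched on both strands of the same 300 bases, and a match is a match of letters only. CCGGAAG, the core bound by GABPA and other ETS factors, was found in 22 of 65 members (33.8%), against 10.7% of all promoters. CACGTG, the E-box letters bound by MYC and MAX, was found in 4 (6.15%), against 7.43%. Of forkhead motifs, the class of site FOXA1 binds, TGTTTAC was found in 0 of 65 members (3.41% of all promoters) and TGTTTGC in 1 (1.54%, against 3.87%). The median log2 fold change was 0.09 for members with CCGGAAG and 0.09 for members without.

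In the knockdown cells, 42 of the 80 members were higher (52.5%, against 39.4% of all tested genes) and 19 were lower (23.8%, against 37.7%), while 19 were not called (edgeR's quasi-likelihood test, adjusted p under 0.05 over all genes). Their 61 calls (76.2%) were thus about as frequent as the 77.1% of all tested genes, and less frequent than the 85.9% among 4813 other abundant genes, those whose counts averaged 1000 or more (41.3% higher, 44.6% lower). The split moved with the scaling of the libraries: 68.9% of the calls were higher with TMM, against 78.7% (48 higher, 13 lower) with upper-quartile scaling and 81.2% (52 higher, 12 lower) with library totals alone. Scaling moved the median of all tested genes by up to 0.0835 on the log2 scale, and the members' median stayed 0.078 above it in all 4 scalings tried. A scaling shifts all genes nearly alike, so that distance could hardly have changed and its steadiness is no added support. With a minimum of 5000 counts, which leaves out RPL26L1 and 3 others, 40 of 76 were higher and 19 lower.

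The changes were small for most members. Their median log2 fold change was 0.10, with quartiles of -0.09 and 0.24, and the interquartile range of 0.33 compares with 1.03 over all tested genes and 0.77 over the other abundant genes. Of the 80, 74 (92.5%) lay within 0.5 of 0 on the log2 scale, against 49.2% of all tested genes and 61.7% of the other abundant genes. RPL26L1 was the 1 member (1.25%) called with a 2-fold change or more, against 28.3% of all tested genes and 14.6% of the other abundant genes, and it is a member only because it rose. The 78 mitochondrial ribosomal protein genes, which encode the ribosome of the mitochondria, had an interquartile range of 0.52. Of them, 36 were higher (46.2%) and 32 lower (41%), 89.7% lay within 0.5 of 0, and 0 were called with a 2-fold change or more. Small changes were thus not particular to the members. The interquartile range was 0.24 over 32 genes for assembly of the 40S subunit and 0.33 over 14 chaperones and importers of ribosomal proteins. It was 0.55 over 30 genes for assembly of the 60S subunit and 0.47 over 36 translation factors. These are descriptions of the lists, and no test of the difference in spread was made.

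**Figure D1:**
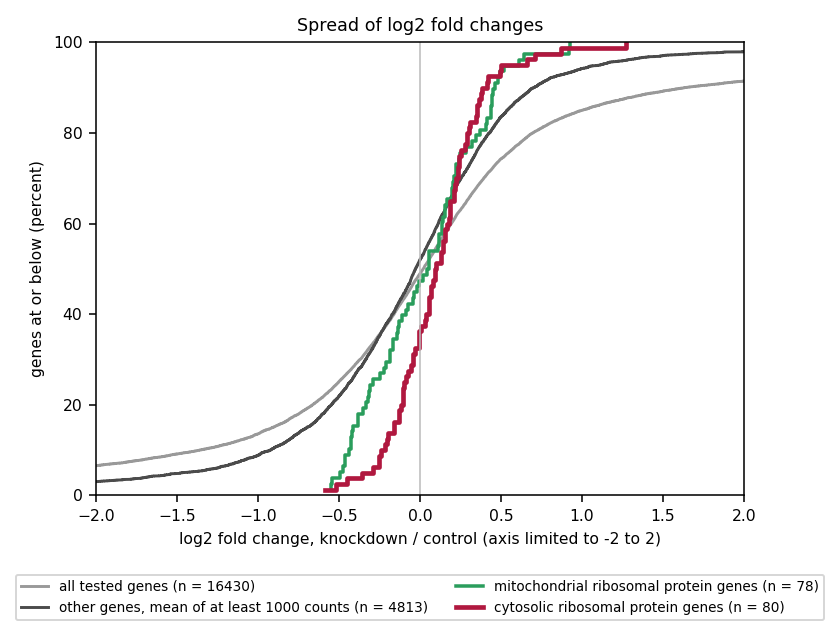
Log2 fold change, knockdown over control, of the 80 members beside the mitochondrial ribosomal protein genes, other abundant genes (at least 1000 counts on average) and all genes tested. The members' interquartile range of 0.33 is narrower than that of all tested genes, 1.03.

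Both subunits showed both directions. Of the 49 large-subunit members 24 were higher and 12 lower, with a median of 0.09, and of the 31 small-subunit members 18 were higher and 7 lower, with a median of 0.10. CPM did not overlap between the groups for 53 members (66.2%, against 72.0% of all tested genes and 82.0% of the other abundant genes). The members' counts made up 8.54% ± 0.172 of the library total in control and 9.03% ± 0.292 in knockdown (SD, n = 4 each), and the groups overlapped (8.39 to 8.79% and 8.65 to 9.35%). The small-subunit members took 3.10% ± 0.0674 in control and 3.58% ± 0.14 in knockdown, without overlap, and the large-subunit members 5.44% ± 0.11 and 5.45% ± 0.153, with overlap. With library totals scaled by TMM the share of all members was 8.80% ± 0.218 in control and 8.78% ± 0.325 in knockdown, so the direction of that difference turned with the scaling. On that scale the small-subunit members took 3.19% ± 0.0826 and 3.48% ± 0.15, with overlap, and the large-subunit members 5.61% ± 0.14 and 5.30% ± 0.176, without overlap and lower in knockdown.

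**Figure D2:**
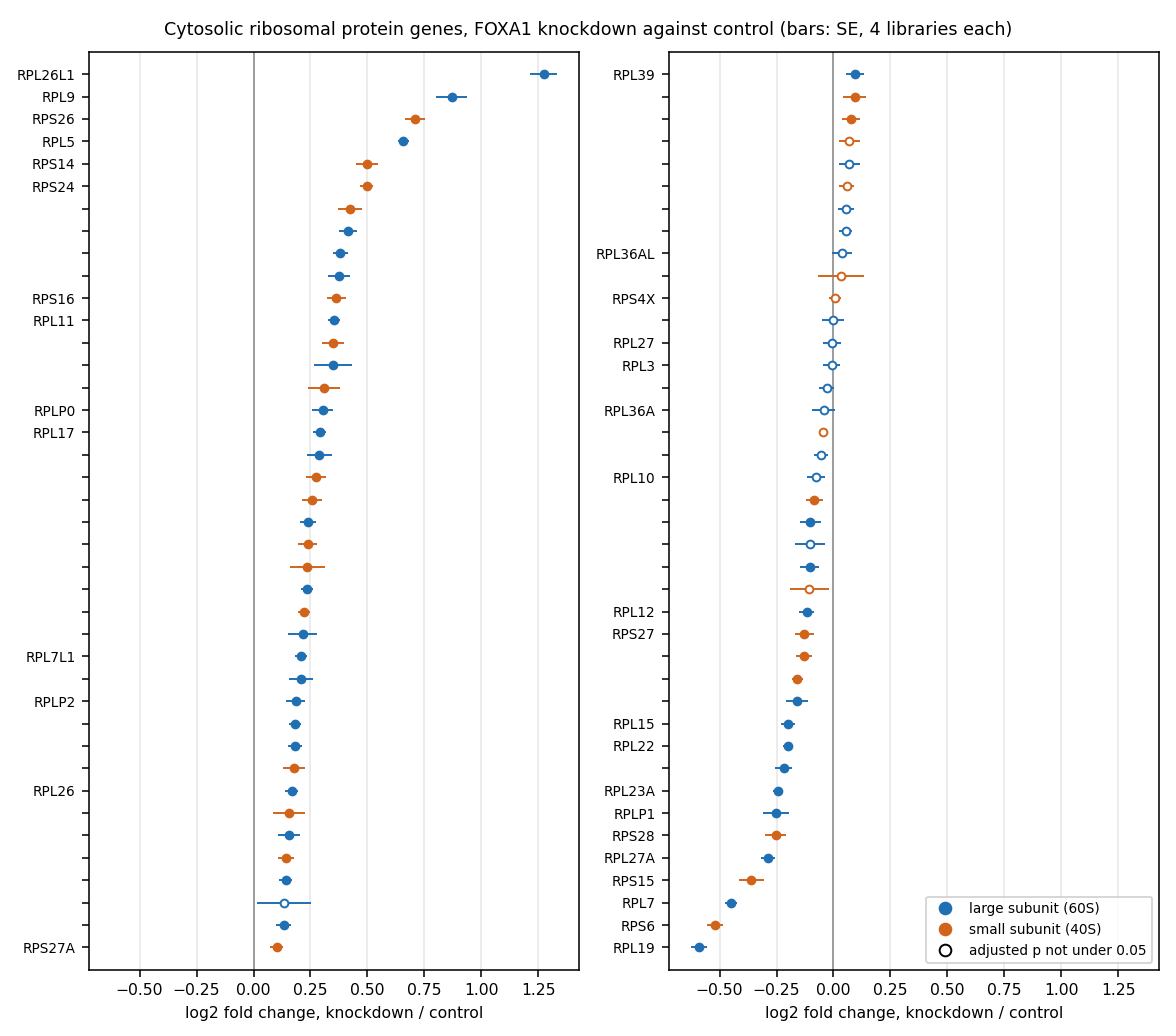
Log2 fold change, knockdown over control, of each of the 80 members in order, with its standard error and whether it was called at an adjusted p under 0.05; a part of the genes are labelled. RPL19 lies at the lower end (-0.59) and RPL26L1 at the upper end (1.27), and 74 of the 80 lie within 0.5 of 0.

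The members shifted together within some libraries. Control replicate 3 was the highest control library for 61 of the 80 members, with a median deviation of 0.06 on the log2 scale from the group mean, while the median deviation of all genes there was 0.0028. Knockdown replicate 2 was the lowest knockdown library for 76 of the 80, with a median deviation of -0.07 (all genes 0.0007). Knockdown replicate 3, the library with the fewest counts, was the highest for 42, and 13 members lay more than 0.1 above the group mean there. RPL35, a protein near the exit tunnel of the 60S subunit, was at 410, 348.4, 516.5 and 411 CPM in knockdown replicates 1 to 4, against 383.2, 370.6, 395.9 and 387.6 in control. RPSA, a 40S protein also known as the laminin receptor, was at 2477, 2090, 2932 and 2368 CPM in knockdown, against 2353, 2407, 2429 and 2454 in control. Both had their lowest and their highest value of all 8 libraries in the knockdown group, and neither was called (edgeR adjusted p = 0.34 and 0.78). The members' calls were 45 higher and 18 lower without control replicate 3, 46 and 17 without knockdown replicate 2, and 40 and 20 without knockdown replicate 3.

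**Figure D3:**
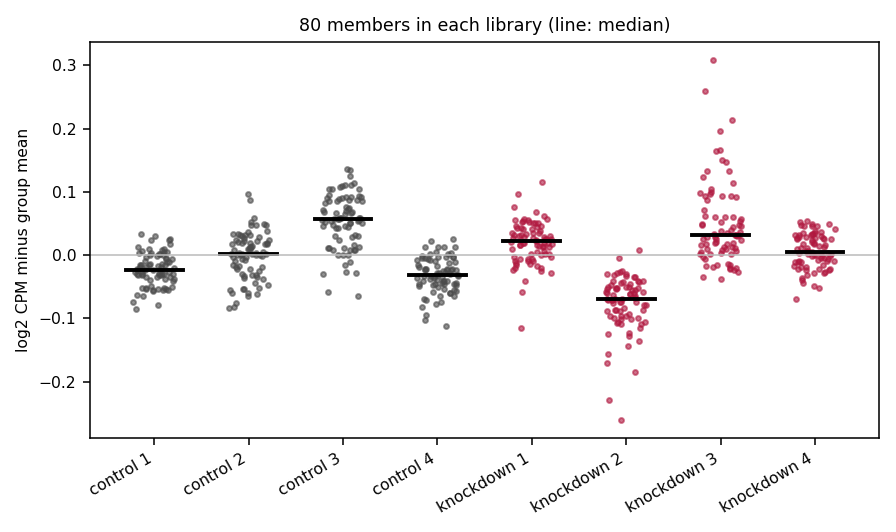
Deviation of each member's log2 CPM from the mean of its own group, by library, for the 4 control and 4 knockdown libraries. Control replicate 3 lies above its group (median 0.06) and knockdown replicate 2 below (median -0.07).

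Of the proteins of the 60S subunit, RPL19, which contributes to a bridge between the subunits, had the highest count of all members and the largest fall. It was at 13264, 12770, 13573 and 12598 CPM in control and at 8764, 8262, 8841 and 8828 in knockdown. All 4 knockdown libraries lay below all 4 controls, at 66.5% of the control mean (log2 fold change -0.59, SE 0.034; edgeR adjusted p = 1.92e-14). It took 14.8% ± 0.3 of the members' counts in control and 9.88% ± 0.119 in knockdown (SD, n = 4). Without RPL19 and RPL7, the remaining 78 members took 6.75% ± 0.152 of the library total in control and 7.73% ± 0.262 in knockdown, without overlap. With TMM-scaled totals these shares were 6.96% ± 0.188 and 7.52% ± 0.29, and the groups overlapped (up to 7.22% in control, from 7.11% in knockdown). RPL19 and RPL7 had the highest counts and both fell, while RPS24, next in count, rose and was kept. Leaving out genes that fell favours a higher share in knockdown by construction.

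RPL19 lies on chromosome 17 (39200283 to 39204732, GENCODE 29, GRCh38), 487.6 kb before the start of ERBB2. ERBB2 went from 7308 CPM ± 365 to 1340 ± 52.9 (SD, n = 4 each; log2 fold change -2.45), and the 50 tested genes nearest to RPL19 had a median log2 fold change of -0.26. With that median taken off, as an offset for the knockdown libraries (here called the regional offset), RPL19 was at -0.33 and kept its call (edgeR adjusted p = 1.5e-09). RPL23, another 60S protein gene 840 kb before ERBB2, was higher in knockdown, from 411.5 CPM ± 10.8 to 467.1 ± 11.4 (log2 fold change 0.18, SE 0.0261; edgeR adjusted p = 1.7e-05), while its own nearest 50 genes had a median of -0.20, which put it at 0.38 with the regional offset. Whether the neighbourhood of ERBB2 had a part in the fall of RPL19 was not tested.

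RPL7, a 60S protein encoded on chromosome 8, fell from 5463, 5544, 5323 and 5406 CPM in control to 4136, 3843, 4028 and 3915 in knockdown. The groups were far apart, and the knockdown mean was 73.2% of control (log2 fold change -0.45, SE 0.0264; edgeR adjusted p = 1.67e-12). RPL7 was at -0.15 with the regional offset (edgeR adjusted p = 0.000138). RPL27A, another 60S protein, was at 1154, 1166, 1212 and 1128 CPM in control and at 966.9, 915, 970.2 and 965.7 in knockdown (log2 fold change -0.29, SE 0.0297; edgeR adjusted p = 1.57e-08). The groups did not overlap, and knockdown replicate 2 stood lowest. RPL22 (log2 fold change -0.20) and RPL15 (-0.20), both 60S proteins, were lower by smaller amounts with no overlap of the groups, and were at -0.34 and -0.33 with the regional offset.

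Of the proteins of the 40S subunit, RPS6, the substrate of the S6 kinases, fell most. It was at 1361, 1407, 1394 and 1383 CPM in control and at 994, 902.9, 998.7 and 969.7 in knockdown, with no overlap and 69.7% of the control mean (log2 fold change -0.52, SE 0.0351; edgeR adjusted p = 3.88e-13). Its nearest 50 tested genes on chromosome 9 had a median of -0.46, and with the regional offset RPS6 was at -0.06 and no longer called (edgeR adjusted p = 0.0938). RPS15, a protein of the 40S head, was at 385.4, 365.1, 416.5 and 373.8 CPM in control and at 287.9, 287.4, 319.8 and 305.5 in knockdown (log2 fold change -0.36, SE 0.0555; edgeR adjusted p = 1.1e-07). Every knockdown library lay below every control, and with the regional offset its value was -0.07 (edgeR adjusted p = 0.165). RPS28, which sits in the head near the mRNA exit and is among the genes mutated in Diamond-Blackfan anaemia, went from 252.9 CPM ± 15.1 to 212.1 ± 5.6 (SD, n = 4 each), without overlap (log2 fold change -0.25, SE 0.0469; edgeR adjusted p = 2.02e-06), and was at -0.15 with the regional offset.

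Among the rises in the 60S subunit, RPL26L1, a paralogue of RPL26, was the lowest member in level and had the largest change. It was at 26.19, 28.01, 30.11 and 25.51 CPM in control and at 65.71, 63.95, 69.21 and 66.53 in knockdown. Every knockdown library was above every control, 2.42-fold on the means (log2 fold change 1.27, SE 0.0585), and 0.69 with the regional offset. No p is given, since this rise let the gene in. RPL9 was at 288.5, 299.7, 302.5 and 296.1 CPM in control and at 555.9, 480.5, 598.5 and 533.8 in knockdown (log2 fold change 0.87, SE 0.0677; edgeR adjusted p = 5.2e-09). The groups did not overlap, and the knockdown libraries spread more (SD 49.1 against 6.03 CPM). RPL9P8, annotated as a pseudogene copy on chromosome 15, holds 30.3% of the counts of RPL9 and its copies and had a log2 fold change of 0.26. RPL9 was at 0.46 with the regional offset. With the copies summed, RPL9 was at 0.68, so how its reads were divided bears on the size of its rise.

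RPL5, which with RPL11 and the 5S RNA forms the 5S particle that can bind MDM2, was at 1222, 1268, 1249 and 1221 CPM in control and at 2008, 1883, 1990 and 1943 in knockdown. The groups were far apart, 1.58-fold on the means (log2 fold change 0.66, SE 0.0246; edgeR adjusted p = 6.48e-16). RPL11 also rose, from 651.3 CPM ± 22.1 to 832.2 ± 7.22 (SD, n = 4 each; log2 fold change 0.35, edgeR adjusted p = 2.36e-10). Both protein members of that particle were thus higher, as were 39.4% of all tested genes. With the regional offset RPL5 was at 0.46 and RPL11 at 0.22.

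Of the 40S proteins, RPS26, which lies at the mRNA exit, was at 178.7, 181.1, 194.7 and 169.3 CPM in control and at 299.7, 289.8, 295 and 298.3 in knockdown (log2 fold change 0.71, SE 0.0429; edgeR adjusted p = 5.65e-15). RPS14, whose gene on chromosome 5 is lost in the 5q- syndrome, was at 944, 980.5, 1017 and 983.5 CPM in control and at 1408, 1283, 1488 and 1363 in knockdown (log2 fold change 0.50, SE 0.0496; edgeR adjusted p = 3.01e-11). RPS24, mutated in some families with Diamond-Blackfan anaemia, was at 2297, 2359, 2239 and 2235 CPM in control and at 3360, 3150, 3175 and 3193 in knockdown (log2 fold change 0.50, SE 0.0279; edgeR adjusted p = 3e-13). None of the 3 showed overlap between groups, which the choice of the largest rises required. With the regional offset RPS14 was at 0.03 (edgeR adjusted p = 0.566) and RPS24 at 0.07 (edgeR adjusted p = 0.0558), since their nearest genes had medians of 0.47 and 0.43, while RPS26, with neighbours at 0.29, was at 0.42 and kept its call (edgeR adjusted p = 2.64e-10).

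**Figure D4:**
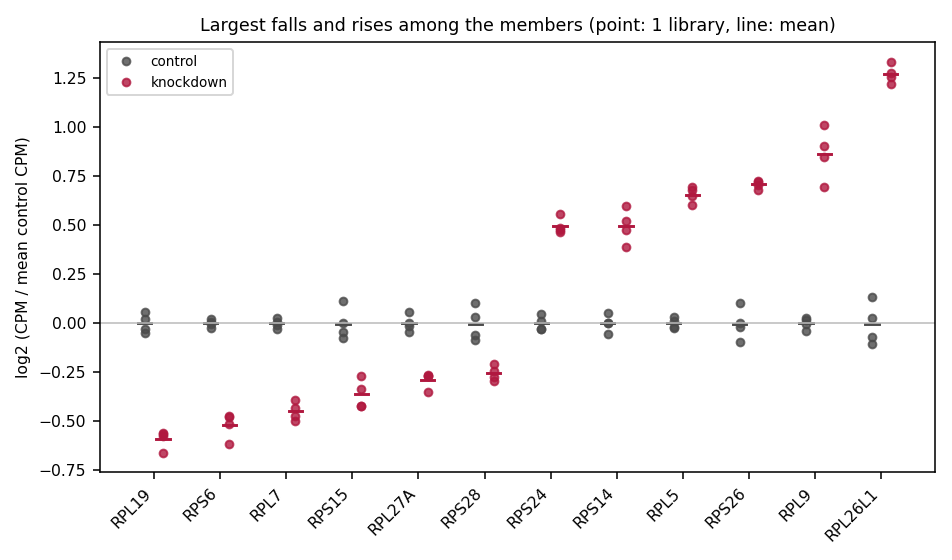
CPM in each of the 8 libraries over the mean control CPM of the same gene, as log2, for the 6 members that fell most and the 6 that rose most, with the group mean. The 12 were picked among called members whose control and knockdown libraries do not overlap, so none overlaps by that choice.

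Among the members nearest to 0 were RPS4X (log2 fold change 0.0061) and RPL27 (-0.0084). RPS4X, a 40S protein with a gene on the X chromosome, was at 1886 CPM ± 58.2 in control and 1894 ± 34.5 in knockdown (SD, n = 4 each; edgeR adjusted p = 0.867). RPL27, a 60S protein, was at 338.5, 355.8, 363.7 and 346.9 CPM in control and at 356.8, 326.3, 353.5 and 360.3 in knockdown (351.2 ± 10.9 and 349.2 ± 15.5, SD, n = 4 each; edgeR adjusted p = 0.838). In both the groups overlapped, and the SE of the log2 fold change was 0.0257 for RPS4X and 0.0397 for RPL27.

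By place in the ribosome, the members of the P stalk, the lateral arm that recruits elongation factors, did not move alike. RPLP0, its base, was higher (log2 fold change 0.30) and so was RPLP2 (0.18), while RPLP1 (-0.25) and RPL12 (-0.12), which anchors the stalk, were lower. All 4 were called, as were 77.1% of all tested genes. With the regional offset RPLP0 was at 0.17, RPLP2 at 0.57, RPLP1 at 0.03 and RPL12 at 0.32. The counts that follow stand beside 39.4% higher and 37.7% lower over all tested genes. Of 8 members around the exit tunnel, 3 were higher (37.5%) and 2 lower (25%). Of 14 members of the 40S head, 9 were higher (64.3%) and 4 lower (28.6%), and of 6 of the platform, 2 were higher (33.3%) and 1 lower (16.7%). Of 16 members linked to Diamond-Blackfan anaemia, 10 were higher (62.5%) and 4 lower (25%), with RPS26 the highest (0.71) and RPS28 the lowest (-0.25). RPS27A, whose protein is made fused to ubiquitin, was higher (0.10), though at -0.15 with the regional offset.

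Levels were set against each other per kb of coding sequence. In control the median member was at 1728 CPM per kb, with quartiles of 1112 and 2401. The lowest was RPL26L1 at 63.1 CPM per kb and the highest RPL19 at 22196, followed by RPL41 at 20694, whose coding sequence is 75 bases long and leaves out the untranslated bases that reads also cover. RPL7 (7304) and RPS24 (5720) came next. Across the 80 members, level and log2 fold change had a Spearman's rho of -0.274, and coding length and log2 fold change one of 0.056. These are correlations across genes of the same 8 libraries, not independent replicates. The control level is also the denominator of the fold change, so part of a negative rho can be built in. RPL26L1, lowest in level and let in by its rise, is among the 80.

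Paralogue pairs allow a ratio within each library, which is free of library scaling. The member rule did not use it, except that it let in RPL26L1 for counts that rose. The pairs RPL22L1 and RPL22, RPL39L and RPL39, RPS27L and RPS27, RPL36AL and RPL36A, RPL26L1 and RPL26, and RPL7L1 and RPL7 had both genes tested, while RPL3L was too low. The RPL26L1 to RPL26 ratio rose most, by 1.11 on the log2 scale (SE 0.0575), a description for the reason given above. The RPL7L1 to RPL7 ratio rose by 0.66 (SE 0.039) and the RPL22L1 to RPL22 ratio by 0.41 (SE 0.0361), both with an exact two-sided permutation p of 0.0286 (n = 4 each), adjusted 0.0429 over the 6 pairs. The RPL39L to RPL39 ratio fell by 0.20 (SE 0.0433; exact permutation p = 0.0286, adjusted 0.0429). The smallest exact p that 4 libraries against 4 allow is 0.0286. The adjustment over 6 pairs counts the RPL26L1 pair, a gene let in by its rise, so the adjusted values rest in part on it. No adjustment without that pair was made. The RPS27L to RPS27 ratio (-0.27, SE 0.0838) and the RPL36AL to RPL36A ratio (0.08, SE 0.0283) had an exact permutation p of 0.0571, adjusted 0.0571, and were not called.

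In RPL22 and RPL7 the gene fell while its paralogue rose. RPL22, whose protein also has roles outside the ribosome, went from 1264 CPM ± 24.4 to 1099 ± 26.1 (SD, n = 4 each; log2 fold change -0.20, edgeR adjusted p = 2.19e-06), and RPL22L1 had a log2 fold change of 0.21 (edgeR adjusted p = 0.00039). RPL7L1, a relative of RPL7 found in ribosome precursors, had a log2 fold change of 0.21 (edgeR adjusted p = 5.96e-06). RPL26 rose by 0.17 beside the 1.27 of RPL26L1, while RPL39 rose by 0.09 and RPL39L was at -0.11 (edgeR adjusted p = 0.0479). The RPL39L call held in 5 of 19 other fits, with an adjusted p of 0.0824 by DESeq2 and 0.0549 by voom. With the regional offset RPL26 was at -0.08 and RPL26L1 at 0.69, and RPL22 at -0.34 and RPL22L1 at 0.65. RPL7 was then at -0.15 and RPL7L1 at 0.14. RPL39 was at 0.07 and RPL39L at 0.09, so this pair then had the same sign. The ratios were not tested with that offset.

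Many ribosomal protein genes have near-identical pseudogene copies, and reads can be divided between them. By symbol, copies and read-through genes held at least 3% of the summed counts for 9 of the 80 members: 54.8% for RPL36A, 39.9% for RPL23A, 37.6% for RPL21, 30.5% for RPL9, 16.5% for RPS2 and 15.9% for RPS28, with RPS10, RPL22 and RPL17 lower. The values of these members are uncertain to that extent. With each member summed with its copies, 42 were higher and 19 lower, as before, and RPL9 moved most (0.192 lower), while no other member moved by more than 0.0305. Some members also overlap a gene on the opposite strand (RPL9 with LIAS over 363 bases, RPL5 with DIPK1A, RPL7 with RDH10, RPL27A with DENND2B and TRIM66, RPS28 with NDUFA7, RPS4X with PIN4). These partners had mean counts from 176 to 2217, and the sources used here do not give strand use in the counting.

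The changes of the members were also read along the chromosomes. Each was set beside its 50 nearest tested genes, by the median of their log2 fold changes. For 59 of 80 members (73.8%) the sign was the same, against 62.2% of all tested genes, 65.5% of the other abundant genes and 67.9% of the mitochondrial ribosomal protein genes. Across the 80 Spearman's rho was 0.665 and Pearson's r 0.657, against a rho of 0.269 over all 16189 tested genes with such a value, 0.381 over the other abundant genes and 0.427 over the mitochondrial ribosomal protein genes. These values describe genes of the same libraries, and neighbouring members share the same window. The counts that follow stand beside 39.4% higher and 37.7% lower over all tested genes, whatever their neighbours. Where the neighbours' median was below -0.1 (27 members), 6 were higher and 13 lower, with a median of -0.10. Where it lay between -0.1 and 0.1 (19 members), 10 were higher and 4 lower, with a median of 0.08. Where it was above 0.1 (34 members), 26 were higher and 2 lower, with a median of 0.24.

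**Figure D5:**
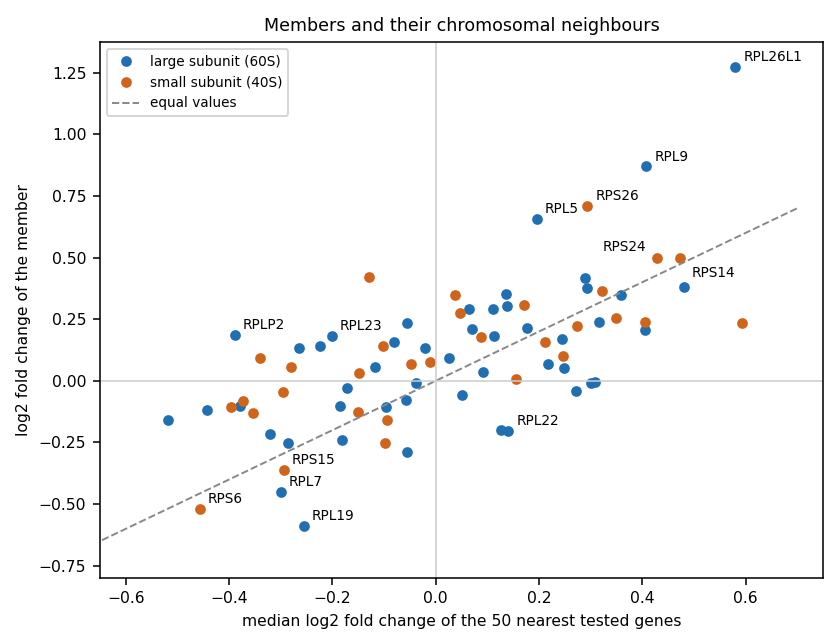
Log2 fold change of each of the 80 members (vertical axis) against the median over its 50 nearest tested genes (horizontal axis). Most members lie in the quadrants where both have the same sign (59 of 80).

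By chromosome, all 4 members on chromosome 5 (RPS23, RPL37, RPS14 and RPL26L1, the last let in by its rise) were higher, with a median of 0.44, and the 724 tested genes there had a median of 0.45. On chromosome 12 all 4 (RPL6, RPL41, RPLP0 and RPS26) were higher, with a median of 0.27, against 0.13 over its genes. On chromosome 9, none of 4 was higher and 3 were lower, with a median of -0.11, against -0.30. On chromosome 19, which holds 12 members, 8 were higher and 2 lower, with a median of 0.24, against 0.12. Over all tested genes of every chromosome, 39.4% were higher and 37.7% lower.

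Some members went against their surroundings. RPLP2, of the P stalk, rose from 676.2 CPM ± 36.6 to 768.7 ± 20.4 (SD, n = 4 each; log2 fold change 0.18, edgeR adjusted p = 6.24e-05), with neighbours at -0.39. RPL22 fell with neighbours at 0.14, and RPL15 with neighbours at 0.13. With the regional median as an offset for the knockdown libraries, 38 members were higher and 21 lower, with a median of 0.08.

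Across 19 other fits, 28 of the 61 called members were past the threshold with the same sign in every one. Of these, 22 were higher, among them RPL9, RPS26, RPL5, RPL24 and RPL11. The 6 lower were RPL19, RPL7, RPL27A, RPS28, RPL22 and RPL15. The 22 also count RPL26L1, which was let in by its rise, so its calls add no support. The sign of 34 members changed in at least 1 fit. Those fits include the regional offset, which sets a member against its neighbours. RPL12 and RPL41 changed sign in that 1 fit only, while RPL27 changed in 6 and RPL3 in 5. Of the called members, RPS13 was the 1 whose sign changed under another scaling.

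The genes around the members were taken from lists of the same pathway. The counts from here to the end of these lists stand beside 39.4% higher and 37.7% lower over all tested genes. Of 24 genes with a TOP motif outside the member rule, 15 were higher (62.5%) and 7 lower (29.2%), with a median of 0.26. NPM1, a nucleolar chaperone, rose by 1.22 and RACK1 by 0.71, while PABPC1, the poly(A) binding protein, was at -0.70 and TPT1 at -0.67. NPM1 was at 0.66 with the regional offset, RACK1 at 0.12, PABPC1 at -0.32 and TPT1 at -0.18. Of 32 genes for assembly of the 40S subunit, 29 were higher (90.6%) and 1 (NAT10, -0.10) was lower (3.12%). Their median was 0.31, against 0.02 over all tested genes. FBL, the methyltransferase of box C/D particles, rose by 1.22 and NOP14 by 0.90. With the regional offset that list held 18 higher and 3 lower, with NAT10 at 0.13 and NOP14 at 0.26.

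Of 30 genes for assembly of the 60S subunit, 17 were higher (56.7%) and 7 lower (23.3%), with a median of 0.16. WDR12 rose by 0.83 and PA2G4 by 0.68, while SBDS, which helps release a factor from the new subunit, was at -1.11 and NMD3, the export adaptor, at -0.59. PA2G4 was at 0.38 with the regional offset, SBDS at -0.59 and NMD3 at -0.13. Of 14 chaperones and importers of ribosomal proteins, 8 were higher (57.1%) and 2 lower (14.3%). PDCD2L was at 0.82 (0.20 with the regional offset) and IPO5 at -0.22 (0.24). Of 15 genes of RNA polymerase I, which transcribes the ribosomal RNA, 8 were higher (53.3%) and 3 lower (20%). TAF1B was at 0.72 and POLR1F at -0.35. Of 36 translation factors, 16 were higher (44.4%) and 15 lower (41.7%), with a median of 0.01. Among them were ETF1 at 0.74 (0.12 with the regional offset) and EEF2, the translocation factor, at -0.60 (-0.33).

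Of 17 genes that regulate TOP mRNAs, 8 were higher (47.1%) and 7 lower (41.2%). LARP1B was at -0.88 and CNBP, a binder of TOP mRNAs, at 0.39 (0.21 with the regional offset). Of 11 transcription factors known to act on ribosomal protein genes, 8 were higher (72.7%) and 1 (MAX, -0.27) was lower (9.09%). GABPA was at 0.95 and MYC at 0.64. On the opposite strand GABPA overlaps ATP5PF (mean 3295 counts) and SBDS overlaps TYW1 (1257). Of 603 ribosomal protein pseudogenes by symbol, 51 were tested, of which 10 were higher (19.6%) and 8 lower (15.7%), with a median of 0.01.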

How the data were processed

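Per the labels' protocols, RNA was taken with Trizol and sequenced as paired reads on an Illumina NextSeq 550 after an mRNA library protocol. The authors deposited raw counts per gene as whole numbers under Ensembl identifiers. FastQC, Salmon 1.9, DESeq2 3.16 and build hg38 are named in the submitters' processing notes with no roles; if Salmon made the counts, they are estimated counts rounded. Annotation and strand use are not given in the sources used here. Groups came from sample titles.

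Genes were kept by filterByExpr (minimum 10 counts, total 15), which left 16430 and removed 14004. edgeR 4.0.16 in R 4.3.3 (TMM factors 0.965 to 1.04, robust quasi-likelihood test, Benjamini-Hochberg over all tested genes, threshold 0.05) compared knockdown with control. The prior count behind fitted fold changes on the log2 scale was 0.125, and SE values come from log2 CPM with 0.5 added to each count. The biological coefficient of variation was 4.56%. Positions are from GENCODE 29 and matched 96.5% of identifiers. In simulated counts, 200 of 16430 genes were changed, equally in both directions, with the same dispersion for all genes. Of these, 78% of genes changed by 0.5 and 96% changed by 1 on the log2 scale were recovered, with 5 false calls of 179. Far more genes were called in the data, so these rates need not hold there.

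The members, lists and alternatives were chosen with earlier results of these data known. Named genes are FOXA1, the 6 largest rises and falls among called members whose CPM does not overlap, the 3 nearest 0 (some genes this rule covers are counted in their lists but not reported here), those next to the minimum, the pairs, the 3 with the highest counts, and up to 2 rises and 2 falls of each other list. RPL23, RPL24, RPL35, RPSA, RPL15, RPS13 and members named by chromosome or for their copies were named after their values were seen.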

Additional observations from a re-analysis of the deposited data

Results flagged for a closer look

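A library that stood far from the other 3 of its group, by Dixon's ratio at the 95% level, was found in 4 of 72 groups of 4, where chance gives about 1 in 20 (3.6 groups). The groups were those of the named members and of RPS27L, RPL22L1 and RPL39L, which are not members. RPL19 was low in knockdown replicate 2, at 8262 CPM against 8764 to 8841 in the others. RPL27A was low in the same library, at 915 CPM against 965.7 to 970.2. RPL3, a 60S protein near the peptidyl transferase centre, was high in control replicate 3, at 1744 CPM against 1602 to 1626. RPLP0 was high in that library, at 1140 CPM against 1067 to 1069. These are the libraries in which most members were at the low or high end of their group.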

How the results depend on the processing

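The alternatives were other scalings, filters, DESeq2, voom, estimation without robust weights, a replicate block, a stricter threshold of 0.01, a regional offset, other minimum levels, summed copies (chosen after seeing the data) and each library left out. Over 19 other fits, 582 of 627 values for 33 named members stayed on their side of the threshold with the same direction, 14 lost their call, 8 gained one and 23 changed sign. Except where a changed number of genes or samples is the alternative itself, the cause was not tested. The SE of a member's log2 fold change ran from 0.0197 to 0.118, and changes near it were not detectable with 4 libraries a group.

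The members' median was 0.1571 with upper-quartile scaling and 0.1815 with library totals alone, where 12 members were lower. In those scalings edgeR called 0 of the 40S assembly genes lower, where NAT10 had been the 1. Upper-quartile scaling put RPL27 at 0.0508, RPL36A at 0.0174 and RPL3 at 0.0506. Library totals put them at 0.0752, 0.0413 and 0.0752, and RPL10 at 0.00713. A minimum mean of 50 counts put RPL27 at 0.00593 and RPL3 at 0.00582. The difference in share of counts was -0.0216 percentage points with TMM-scaled totals, against 0.486.

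With the regional offset the 40S assembly genes gave 18 higher and 3 lower, and the RNA polymerase I genes 1 lower. Signs turned for RPS4X (-0.15), RPL27 (0.0295), RPL36AL (-0.0554), RPL39L (0.0888), RPS27 (0.0234), RPL26 (-0.0759), RPLP1 (0.0332), RPL12 (0.324) and RPS27A (-0.146), and among other genes for NAT10 (0.134), IPO5 (0.242), POLR1D (0.341) and MRPS11 (0.032).

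Leaving out each library gave 38 to 46 members higher and 17 to 20 lower. It moved RPS4X from -0.0132 to 0.0209, RPL27 from -0.0296 to 0.0248 and RPL3 from -0.0286 to 0.0155. The pair ratios ranged from 0.391 to 0.43 for RPL22L1, from -0.242 to -0.179 for RPL39L, from 1.07 to 1.15 for RPL26L1 and from 0.634 to 0.679 for RPL7L1. No adjusted p was under 0.05 there, since 3 libraries against 4 allow no exact permutation p that low.

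Same-numbered libraries did not deviate together (correlations from -0.0307 to 0.0563), and not every library correlated best with its own number. With the replicate number as a block, 12453 genes were called, and 41 members were higher and 19 lower.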
